A study of Mus musculus with 34 samples.

Results

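MHC class II presentation genes were followed across mouse cortex through 7 genes: the chain genes H2-Aa, H2-Ab1 and H2-Eb1, the invariant chain gene Cd74, the peptide-exchange genes H2-DMa and H2-DMb1, and their regulator Ciita. They were taken by gene name from the deposited count table, which lists 55385 genes. All 7 were found, and 6 had enough counts to be among the 17632 genes tested, Ciita being the exception. H2-Ab1 and H2-Eb1 were higher in mice with the Dp16 duplication than in mice without it, by 0.75 and 0.69 on the log2 scale. Both differences lay near the test's threshold. Leaving out 1 library ended the H2-Ab1 call in 16 of 34 omissions and the H2-Eb1 call in 15. Covariates were added after the data were seen. With the level of meningeal fibroblast genes the differences were 0.48 and 0.41, and neither was called. With the level of microglia genes both were called. With the level of border macrophage genes the differences were 0.61 and 0.70, and only H2-Eb1 of these genes was called. None of the 6 passed the test for the 5xFAD transgenes, where 0.42% of all tested genes did, or for tofacitinib, where 0% did. At such shares these counts say nothing particular of the members.

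Poly-A RNA of brain cortex was sequenced from 34 mice aged 6 months, 16 female and 18 male. Tofacitinib is an oral inhibitor of Janus kinases, the enzymes that carry interferon and other cytokine signals into the cell. It was gavaged daily for 1 month at 15 mg/kg, and sham mice were gavaged with the 0.5% methylcellulose vehicle. Each library held between 16029841 and 21388650 counted reads. Compound 5xFAD-Dp16 mice numbered 4 with tofacitinib, 2 of them female, and 3 with sham, 2 female. Dp16 mice numbered 5 with tofacitinib, 3 female, and 3 with sham, 2 female. 5xFAD mice numbered 5 with tofacitinib, 2 female, and 4 with sham, 1 female. Wild-type C57BL/6J mice numbered 5 with tofacitinib, 2 female, and 5 with sham, 2 female. Dp16 mice have a duplicated segment of chromosome 16 that holds the mouse counterparts of many genes of human chromosome 21, so every gene of the segment is present in an extra copy. 5xFAD mice express mutant human amyloid precursor protein and presenilin transgenes in neurons under Thy1 sequences and form amyloid plaques. Whole cortex tissue was measured, so a lower or higher level cannot be told apart from fewer or more cells of the type that makes the transcript.

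The labels were checked in the same tables, in CPM, the count scaled to a library total of 1000000 reads. Thy1, whose sequences drive the 5xFAD transgenes, had 1427 to 2572 CPM in the 16 libraries with 5xFAD and 824 to 952 CPM in the 18 without. The median ratio of segment genes was 1.43 to 1.55 in the 15 Dp16 carriers and 0.928 to 1.09 in the 19 non-carriers. Striatum markers, a check of the dissection, had log2 differences that were below 0 in 6 of 6 in Dp16 carriers with a median of -0.64 and 0 called. On principal components of all genes, 5xFAD tofacitinib 2 and wild-type sham 2 lay away from the rest.

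MHC class II molecules are pairs of an alpha and a beta chain that show peptides from engulfed or endocytosed proteins to CD4 T cells. In the endoplasmic reticulum the pair is capped by the invariant chain, which is trimmed in endosomes to a small fragment that the H2-DM heterodimer exchanges for peptide. The genes are switched on by the co-activator Ciita, which binds no DNA itself and docks on factors already sitting on the class II promoters. In brain, resting microglia carry little class II, and macrophages and dendritic cells of the meninges, perivascular spaces and choroid plexus carry more.

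The docking elements of this regulation are visible in the promoters of H2-Aa, H2-Eb1 and H2-DMb1, shown because these 2 chain genes and H2-DMb1 carry them at like places. The sequences are the 150 bases before the transcription start in the RefSeq promoter table of build GRCm38.p6, 5′ to 3′ on the gene's strand. Capitals mark TGATTGG, the core of the Y box, and upstream of it a stretch of the X box region, either TGATGATG or TGACGTCA. The exact bounds of the X box elements were not determined. H2-Aa lies at chr17:34287824-34287973 on the minus strand, H2-Eb1 at chr17:34305717-34305866 on the plus strand, and H2-DMb1 at chr17:34153041-34153190 on the plus strand.
H2-Aa: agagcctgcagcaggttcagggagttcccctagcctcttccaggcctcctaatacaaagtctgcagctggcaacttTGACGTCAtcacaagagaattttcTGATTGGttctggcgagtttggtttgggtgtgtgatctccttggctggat
H2-Eb1: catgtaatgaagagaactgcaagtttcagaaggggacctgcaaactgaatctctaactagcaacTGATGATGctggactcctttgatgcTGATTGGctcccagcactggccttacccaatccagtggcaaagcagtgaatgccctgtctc
H2-DMb1: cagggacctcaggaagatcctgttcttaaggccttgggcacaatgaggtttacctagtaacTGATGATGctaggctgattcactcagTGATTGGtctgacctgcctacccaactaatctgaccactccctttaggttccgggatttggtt

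In each of the 3 promoters the Y box core followed the marked X box stretch at nearly the same spacing. TGATTGG began at position -50 in H2-Aa, -61 in H2-Eb1 and -63 in H2-DMb1, counted from the start. TGATGATG began at -86 in H2-Eb1 and -89 in H2-DMb1, and TGACGTCA began at -74 in H2-Aa. Over 32851 promoter windows of the table, which run from 250 bases before to 50 after the start, TGATTGG was found on either strand in 7.82%, TGATGATG in 1.44% and TGACGTCA in 1.79%. The motifs do not overlap one another in these 3 promoters, and they were chosen after the sequences were read. None of the 3 was found in the table's 2 windows of H2-DMa. H2-Ab1 and Ciita were matched to no entry of the table, and the promoter of Cd74 was not analysed here.

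Per length, H2-DMa was the most abundant member, with a mean of 4.81 RPKM over the 34 libraries, followed by Cd74 with 3.87 RPKM. The chain genes were lower, at 1.96 RPKM for H2-Ab1, 1.55 RPKM for H2-Aa and 1.19 RPKM for H2-Eb1. H2-DMb1 stood at 1.57 RPKM and Ciita at 0.0134 RPKM. In reads, H2-DMa had 161 to 356 counts per library, Cd74 43 to 203, H2-Ab1 11 to 106, H2-Eb1 11 to 82, H2-Aa 1 to 77 and H2-DMb1 20 to 70. The chain genes therefore rest on few reads in each library.

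H2-Ab1 (ENSMUSG00000073421.6, chromosome 17, 34257689 to 34269419, plus strand, build GRCm38) encodes the beta chain of the I-A molecule. In CPM, 5xFAD-Dp16 mice had 2.44, 2.59, 3.56 and 2.63 with tofacitinib and 2.49, 3.67 and 1.97 with sham. Dp16 mice had 2.76, 4.33, 2.58, 1.5 and 3.10 with tofacitinib and 4.26, 4.28 and 4.05 with sham. Behind these values stood 26 to 76 counts per library. Among carriers of the duplication, the 3 Dp16 sham libraries lay close together and the Dp16 tofacitinib libraries spread below and just above them. Without the duplication, 5xFAD mice had 1.32, 4.79, 2.14, 1.19 and 1.54 CPM with tofacitinib and 1.08, 1.02, 0.832 and 2.68 CPM with sham. Wild-type mice had 1.60, 1.36, 2.22, 2.67 and 1.96 CPM with tofacitinib and 2.02, 2.35, 0.994, 0.660 and 1.73 CPM with sham, the non-carriers together giving 11 to 106 counts. The ranges overlapped. Of 15 carriers, 14 lay above the median of the 19 non-carriers, and 0 lay above the highest non-carrier, 5xFAD tofacitinib 2, while 8 lay above the next one at 2.68 CPM.

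H2-Eb1 (ENSMUSG00000060586.11, chromosome 17, 34305867 to 34316674, plus strand) encodes the beta chain of the I-E molecule. C57BL/6 mice lack a working I-E alpha chain, and the alpha gene is listed in the table as a pseudogene, H2-Ea-ps, with 0 counts in all 34 libraries. H2-Eb1 had 2.54, 1.82, 4.25 and 2.22 CPM in 5xFAD-Dp16 tofacitinib mice and 2.31, 3.25 and 1.79 CPM in 5xFAD-Dp16 sham mice. Dp16 mice had 2.64, 3.49, 1.64, 1.5 and 2.28 CPM with tofacitinib and 2.91, 3.04 and 2.26 CPM with sham. These carriers had 26 to 80 counts per library, and all 15 were above the non-carrier median. Among non-carriers, 5xFAD mice had 1.56, 3.71, 1.24, 1.24 and 1.89 CPM with tofacitinib and 0.958, 1.14, 1.13 and 2.44 CPM with sham. Wild-type mice had 1.66, 1.42, 1.67, 1.54 and 1.47 CPM with tofacitinib and 1.01, 2.03, 0.683, 0.961 and 1.51 CPM with sham. Non-carriers had 11 to 82 counts. The groups overlapped: 1 carrier exceeded the highest non-carrier, again 5xFAD tofacitinib 2, and 7 exceeded the next, 5xFAD sham 4.

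Cd74 (ENSMUSG00000024610.15, chromosome 18, 60803848 to 60812652, plus strand) encodes the invariant chain. It had 6.66, 5.34, 8.77 and 5.40 CPM in 5xFAD-Dp16 tofacitinib mice and 8.05, 8.07 and 5.08 CPM in 5xFAD-Dp16 sham mice. Dp16 mice had 7.02, 6.80, 3.81, 2.89 and 5.85 CPM with tofacitinib and 8.01, 8.78 and 6.83 CPM with sham, the carriers together giving 50 to 171 counts. The Dp16 tofacitinib libraries reached lower than any other carrier. Non-carriers with 5xFAD had 8.0, 9.18, 3.98, 3.92 and 3.78 CPM with tofacitinib and 3.53, 3.75, 3.96 and 7.26 CPM with sham. Wild-type mice had 2.89, 3.83, 4.50, 4.78 and 3.49 CPM with tofacitinib and 3.44, 2.73, 4.16, 5.94 and 5.03 CPM with sham, the non-carriers giving 43 to 203 counts. Most non-carriers lay between 2.73 and 5.94 CPM, with 3 5xFAD libraries at 7.26, 8.0 and 9.18 CPM. Of 15 carriers, 13 were above the non-carrier median and 0 above the non-carrier maximum.

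H2-Aa (ENSMUSG00000036594.15, chromosome 17, 34282744 to 34287823, minus strand) encodes the I-A alpha chain that pairs with the H2-Ab1 product. It had 2.01, 1.45, 4.09 and 1.57 CPM in 5xFAD-Dp16 tofacitinib mice, 1.88, 1.78 and 0.940 CPM in 5xFAD-Dp16 sham mice, 1.98, 2.05, 2.23, 1.91 and 1.52 CPM in Dp16 tofacitinib mice, and 2.13, 2.25 and 3.71 CPM in Dp16 sham mice. The non-carriers spread from 0.0636 CPM, a single count in wild-type sham 2, to 2.93 CPM, 59 counts in 5xFAD sham 4. Wild-type tofacitinib 2 was also low, with 5 counts and 0.308 CPM. In wild-type sham 2 the partner gene H2-Ab1 had 37 counts, so both chains were not low together in that library. Carriers averaged 2.1 ± 0.81 CPM (SD, n = 15) and non-carriers 1.46 ± 0.78 CPM (SD, n = 19), and the groups overlapped.

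H2-DMa (ENSMUSG00000037649.10, chromosome 17, 34119541 to 34139101, plus strand) and H2-DMb1 (ENSMUSG00000079547.4, chromosome 17, 34153072 to 34160230, plus strand) encode the alpha and a beta chain of the H2-DM peptide exchanger. H2-DMa ranged from 9.55 to 17.4 CPM over all libraries and H2-DMb1 from 1.19 to 4.21 CPM. H2-DMa averaged 13.6 ± 1.67 CPM in the 15 carriers and 12.2 ± 1.95 CPM in the 19 non-carriers (SD). H2-DMb1 averaged 2.25 ± 0.763 CPM in carriers and 2.18 ± 0.487 CPM in non-carriers. The H2-DMa annotation overlaps Brd2 on the other strand, which had 208 CPM, and whether the counting used strand is not given in the sources used here. H2-DMb1 has a near-identical neighbour, H2-DMb2, so the split of reads between them is uncertain.

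**Figure D1:**
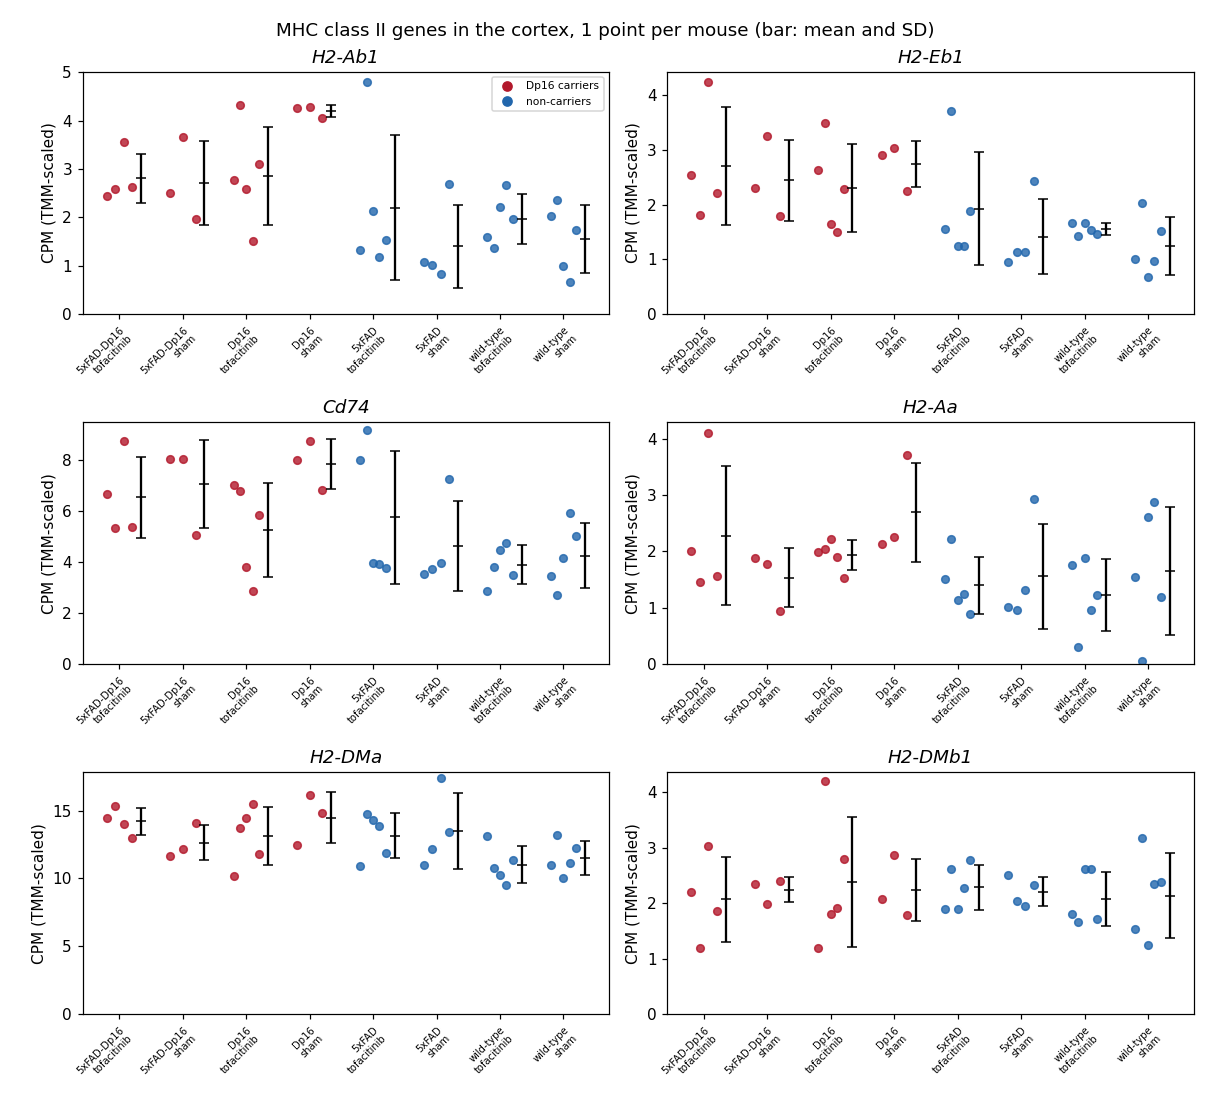
CPM of the 6 tested members in each library, with genotype and treatment groups along the x axis, 5xFAD-Dp16 at the left and wild-type at the right. Points are libraries, bars the group mean and SD, red the carriers of the Dp16 duplication and blue the non-carriers. Dp16 sham libraries are the highest group for H2-Ab1, at 4.05 to 4.28 CPM, and single 5xFAD libraries reach 4.79 CPM.

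Ciita (ENSMUSG00000022504.10, chromosome 16, 10480059 to 10528418, plus strand) was near the limit of what these libraries can count. It had 68 counts in all, 43 in the 15 carriers and 25 in the 19 non-carriers, and 17 of 34 libraries had any. The highest counts were 12 in Dp16 sham 3, 9 in Dp16 tofacitinib 2 and 8 in 5xFAD-Dp16 tofacitinib 3. A count of 0 allows up to 3 counts, which is 0.140 to 0.187 CPM at these depths. Ciita lies on chromosome 16 but outside the duplicated segment, taken as 75540514 to 97962622. The 104 tested genes of the segment had a median ratio of 1.46 between carriers and non-carriers, 102 of them above 1, while the 17 tested genes within 1000000 bases of Ciita had a median ratio of 0.999 and 0 of them passed the test. Ciita also overlaps Dexi on the other strand, which had 35.5 CPM.

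Across the 8 groups the order of mean levels put carriers first for H2-Ab1 and H2-Eb1. H2-Ab1 averaged 4.20 ± 0.124 CPM in Dp16 sham, 2.85 ± 1.02 in Dp16 tofacitinib, 2.81 ± 0.509 in 5xFAD-Dp16 tofacitinib and 2.71 ± 0.867 in 5xFAD-Dp16 sham mice (SD). It averaged 2.19 ± 1.5 CPM in 5xFAD tofacitinib, 1.96 ± 0.517 in wild-type tofacitinib, 1.55 ± 0.707 in wild-type sham and 1.40 ± 0.860 in 5xFAD sham mice. The step from Dp16 sham down to the next group was larger than both SDs, and every other step between neighbours was smaller than the SDs beside it. H2-Eb1 averaged 2.74 ± 0.419 CPM in Dp16 sham, 2.71 ± 1.07 in 5xFAD-Dp16 tofacitinib, 2.45 ± 0.741 in 5xFAD-Dp16 sham and 2.31 ± 0.807 in Dp16 tofacitinib mice. It averaged 1.93 ± 1.03 CPM in 5xFAD tofacitinib, 1.55 ± 0.111 in wild-type tofacitinib, 1.41 ± 0.686 in 5xFAD sham and 1.24 ± 0.536 in wild-type sham mice. Each step was smaller than the larger of the 2 SDs beside it.

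For Cd74 the order mixed the genotypes. Cd74 averaged 7.88 ± 0.980 CPM in Dp16 sham, 7.06 ± 1.72 in 5xFAD-Dp16 sham and 6.54 ± 1.60 in 5xFAD-Dp16 tofacitinib mice (SD). The 5xFAD tofacitinib group, at 5.77 ± 2.61 CPM, stood above Dp16 tofacitinib at 5.27 ± 1.84 CPM. The lowest 3 groups were 5xFAD sham at 4.63 ± 1.76, wild-type sham at 4.26 ± 1.27 and wild-type tofacitinib at 3.89 ± 0.764 CPM. Neighbours in this order differed by less than the larger SD. H2-Aa was highest in Dp16 sham mice at 2.70 ± 0.878 CPM and lowest in wild-type tofacitinib mice at 1.23 ± 0.640 CPM. Group means of H2-DMa lay between 11 and 14.5 CPM, and those of H2-DMb1 between 2.07 and 2.39 CPM.

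The duplication was compared over both treatments and both 5xFAD states, as the unweighted mean of the 4 differences between groups with and without it. H2-Ab1 and H2-Eb1 rose in carriers and no member fell. H2-Ab1 averaged 3.08 ± 0.893 CPM in the 15 carriers and 1.80 ± 0.946 CPM in the 19 non-carriers (SD), a log2 difference of 0.75 (SE 0.20) with an adjusted p of 0.0381 in edgeR's quasi-likelihood test with Benjamini-Hochberg adjustment. H2-Eb1 averaged 2.53 ± 0.756 CPM in carriers and 1.54 ± 0.672 CPM in non-carriers, a log2 difference of 0.69 (SE 0.18, adjusted p = 0.0376). Cd74 averaged 6.49 ± 1.76 CPM in carriers and 4.64 ± 1.75 CPM in non-carriers, a log2 difference of 0.49 (SE 0.16), which missed the threshold at an adjusted p of 0.103. H2-Aa had a log2 difference of 0.57 (SE 0.27, adjusted p = 0.332), H2-DMa 0.15 (SE 0.07, adjusted p = 0.346) and H2-DMb1 0.05 (SE 0.16, adjusted p = 0.944).

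Thus 2 of 6 tested members were called for the duplication, where 2.14% of all 17632 tested genes were called, 1.17% as higher in carriers. The differences of all 6 were above 0 with a median of 0.53, while the median of all tested genes was 0.004 and 51.3% of them were above 0. The members were chosen with earlier results of these data known, and some of them move together. Their signs are a description and were not tested as a set. DESeq2 called 3 of the 6, adding Cd74 at an adjusted p of 0.0480. Both calls lie close to the threshold and depend on single libraries. Leaving out each of the 34 libraries in turn kept the H2-Ab1 difference between 0.69 and 0.91 and its adjusted p between 0.0035 and 0.0947, and H2-Eb1 between 0.57 and 0.80 with an adjusted p between 0.00715 and 0.123. The H2-Ab1 call was lost in 16 of the 34 omissions and the H2-Eb1 call in 15.

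The libraries whose omission ended the H2-Ab1 call were 5xFAD-Dp16 tofacitinib 3 and 4, 5xFAD-Dp16 sham 1, 2 and 4, Dp16 tofacitinib 2 and 5, Dp16 sham 2 and 3, 5xFAD tofacitinib 1, 5xFAD sham 1, 2 and 3, wild-type tofacitinib 1 and 2, and wild-type sham 3, with adjusted p up to 0.0947. For H2-Eb1 they were 5xFAD-Dp16 tofacitinib 3, 5xFAD-Dp16 sham 1 and 2, Dp16 tofacitinib 2 and 5, Dp16 sham 1, 2 and 3, 5xFAD tofacitinib 1, 5xFAD sham 1, 2 and 3, wild-type tofacitinib 2, and wild-type sham 1 and 3, with adjusted p up to 0.123. Cd74 was called when 5xFAD sham 4 was left out (adjusted p = 0.0381) or when 5xFAD tofacitinib 2 was (adjusted p = 0.0331). Without both 5xFAD tofacitinib 2 and wild-type sham 2, the libraries away from the rest, H2-Ab1 had a log2 difference of 0.98 (adjusted p = 0.00197) and H2-Eb1 of 0.89 (adjusted p = 0.00241).

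**Figure D2:**
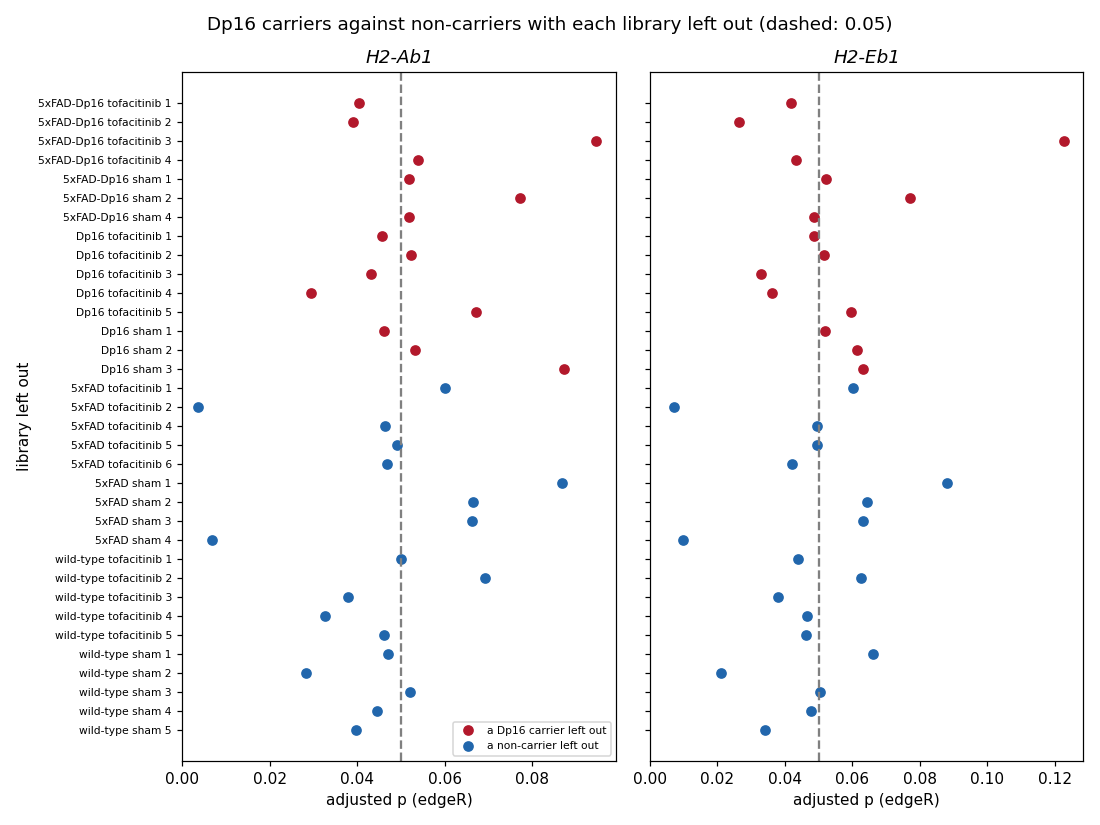
Adjusted p of H2-Ab1 and H2-Eb1 for carriers against non-carriers of the duplication when each of the 34 libraries is left out, with the 0.05 threshold as a line. The values straddle the threshold, from 0.0035 to 0.0947 for H2-Ab1 and from 0.00715 to 0.123 for H2-Eb1.

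Within each treatment and each sex the carriers stayed higher on average in H2-Ab1, H2-Eb1 and Cd74, without passing the test. The treatments were compared within the fit of all 34 libraries, and each sex was fitted alone. In sham mice H2-Ab1 averaged 3.45 ± 0.984 CPM in 6 carriers and 1.49 ± 0.730 CPM in 9 non-carriers (SD). In tofacitinib mice it averaged 2.83 ± 0.785 CPM in 9 carriers and 2.08 ± 1.06 CPM in 10 non-carriers. The log2 difference of H2-Ab1 was 1.09 in sham mice (adjusted p = 0.125) and 0.41 in tofacitinib mice (adjusted p = 0.703), and that of H2-Eb1 was 0.86 (adjusted p = 0.256) in sham mice and 0.51 (adjusted p = 0.502) in tofacitinib mice. Cd74 averaged 7.47 ± 1.33 CPM in sham carriers and 4.42 ± 1.42 CPM in sham non-carriers, against 5.84 ± 1.76 CPM in tofacitinib carriers and 4.83 ± 2.06 CPM in tofacitinib non-carriers. The difference between treatments was itself tested as an interaction, at -0.69 for H2-Ab1 (SE 0.39) and -0.39 for Cd74, with an adjusted p of 1 for H2-Ab1. By sex, H2-Ab1 averaged 3.27 ± 0.848 CPM in 9 female carriers and 2.07 ± 1.28 CPM in 7 female non-carriers, and 2.80 ± 0.963 CPM in 6 male carriers and 1.64 ± 0.706 CPM in 12 male non-carriers.

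Taken pair by pair, Dp16 against wild-type in sham mice held the largest H2-Ab1, H2-Eb1 and Cd74 differences among the comparisons of 2 groups. H2-Ab1 stood at 1.39 on the log2 scale (SE 0.40, adjusted p = 0.222), H2-Eb1 at 1.08 (adjusted p = 0.433) and Cd74 at 0.84 (adjusted p = 0.514). The 3 Dp16 sham libraries had 4.05 to 4.28 CPM of H2-Ab1 and the 5 wild-type sham libraries 0.660 to 2.35 CPM. How many of all tested genes separate groups this small was not counted. Neither edgeR nor DESeq2 called any of the 6 members there, though 4 had an unadjusted p under 0.05, and 0.21% of tested genes were called by edgeR. In 5xFAD-Dp16 against wild-type sham mice, where 0.363% of genes were called, H2-Eb1 differed by 0.91 (adjusted p = 0.282), H2-Ab1 by 0.74 (adjusted p = 0.38) and Cd74 by 0.67 (adjusted p = 0.322), with 2 members at an unadjusted p under 0.05 and 0 called by either tool. These comparisons share the wild-type sham libraries.

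Between the compound mice and single carriers in sham, H2-Ab1 was 0.80 higher, H2-Eb1 0.65 and Cd74 0.54 in 5xFAD-Dp16 than in 5xFAD mice, each with an adjusted p of 1 and with 0.102% of genes called. Against Dp16 sham mice the compound mice had values of -0.65 for H2-Ab1 and -0.76 for H2-Aa, and 0.00567% of genes were called. Among tofacitinib mice, Dp16 against wild-type gave 0.71 for H2-Aa, 0.51 for H2-Eb1, 0.45 for H2-Ab1 and 0.40 for Cd74, with 0.25% of genes called. The compound against wild-type gave 0.89 for H2-Aa, 0.80 for H2-Eb1, 0.73 for Cd74 and 0.37 for H2-DMa, with 0.306% of genes called. In these 4 comparisons edgeR and DESeq2 called 0 of the 6 members, and 3 members had an unadjusted p under 0.05 in compound against wild-type tofacitinib mice and 0 in the others. The comparisons within tofacitinib share the wild-type tofacitinib libraries. The interaction of 5xFAD and Dp16 over both treatments lay between -0.36 and -0.20 on the log2 scale for all 6 members, with an adjusted p of 0.995 for each, 0 at an unadjusted p under 0.05, 0 called by either tool and 0.00567% of genes called by edgeR.

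Between carriers and non-carriers of 5xFAD some plaque-associated microglial genes rose, and no class II member was called. Carriers against non-carriers of 5xFAD gave 0.21 for Cd74 (SE 0.15, adjusted p = 0.433), 0.17 for H2-Eb1, 0.10 for H2-DMa, -0.01 for H2-DMb1, -0.11 for H2-Aa and -0.14 for H2-Ab1. Of the 6, 3 were above 0, 0 were called by edgeR or DESeq2, 0 had an unadjusted p under 0.05, and 0.42% of all tested genes were called by edgeR. At that share, 0 calls of 6 say nothing particular of the members. In the same comparison 5 of 12 genes of a plaque microglia list rose, among them Cst7 by 5.42, Clec7a by 2.56, Itgax by 2.29 and the lysosomal gene Cd68 by 0.56. Of 7 endosomal processing genes 2 rose, the cathepsins Ctsd by 0.31 (adjusted p = 0.0104) and Ctsz by 0.28 (adjusted p = 0.0329). Ctss, the cathepsin that trims the invariant chain, had a value of 0.19 (adjusted p = 0.128).

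Within each treatment the 5xFAD comparison called no member either. In sham mice the members lay between -0.10 and 0.26 against wild-type, with 0.017% of genes called, and in tofacitinib mice Cd74 had the highest value, 0.55 (adjusted p = 0.78), also with 0.017% of genes called. The sham share rests on 3 called genes, and leaving out 1 library put that count between 1 and 1987, the highest without wild-type sham 3. edgeR and DESeq2 called 0 of the 6 members in both, and 0 had an unadjusted p under 0.05.

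Tofacitinib moved none of the 6 members past the threshold. As the mean of the 4 genotypes the differences lay between -0.13 for Cd74 (SE 0.15) and 0.17 for H2-Eb1 (SE 0.18), with 2 of 6 above 0. edgeR and DESeq2 called 0 members, 0 had an unadjusted p under 0.05, and edgeR called 0 of all 17632 tested genes, of which 592 had an unadjusted p under 0.05 and DESeq2 called 1. In Dp16 mice the drug difference was -0.57 for Cd74 (SE 0.31) and -0.55 for H2-Ab1 (SE 0.39), in 5xFAD mice 0.28 for Cd74 and 0.56 for H2-Ab1 (SE 0.39), and in wild-type mice -0.14 for Cd74 and 0.39 for H2-Ab1. In the compound mice Cd74 stood at -0.08 and H2-Ab1 at 0.12. The 5xFAD tofacitinib value holds the single library at 4.79 CPM. Interactions of the drug with 5xFAD and with Dp16, and of 5xFAD with sex, called 0 members by either tool, with 0 of them at an unadjusted p under 0.05, and edgeR called 0% of all tested genes in each, so these counts say nothing particular of the members.

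**Figure D3:**
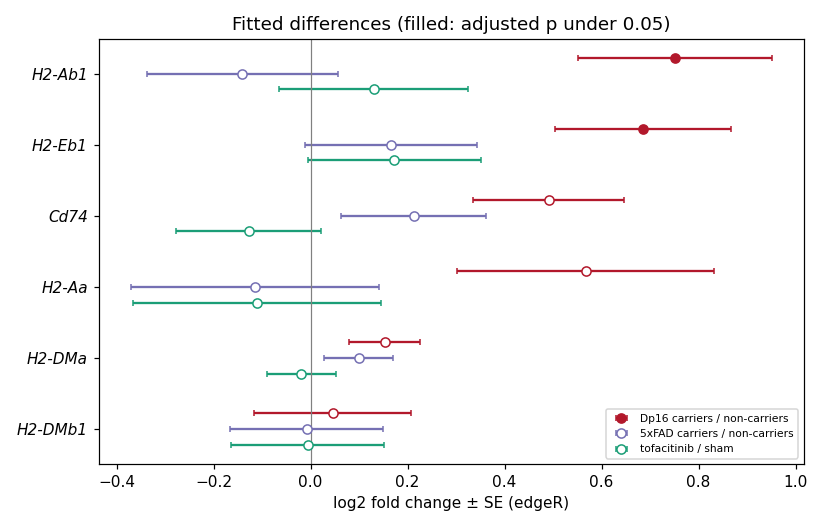
Log2 difference with its SE for the 6 tested members, for carriers against non-carriers of Dp16, carriers against non-carriers of 5xFAD, and tofacitinib against sham as the mean of the genotypes. Filled points have an adjusted p under 0.05 and are H2-Ab1 at 0.75 and H2-Eb1 at 0.69, both for Dp16.

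Of the factors that dock at the class II promoters, none rose in Dp16 carriers and 1 fell. Of 7 partners of Ciita 1 had a value above 0, and Rfx5, a subunit of the factor that binds the X box, fell by 0.50 on the log2 scale (SE 0.09, adjusted p = 0.00168) at a mean of 10.5 CPM. The other subunits Rfxank and Rfxap stood at -0.09 and -0.08 and missed the threshold, as did Creb1 at -0.04 and the Y box factors Nfya at -0.16, Nfyb at 0.02 and Nfyc at -0.14. Upstream of Ciita, Ifngr2, a chain of the interferon gamma receptor and a gene of the duplicated segment, rose by 0.69 (adjusted p = 1.7e-12) at 63.5 CPM. Interferon gamma itself, Ifng, had 0 counts in all libraries. Irf1, a transcription factor induced by interferon gamma, had 0.07. In all, 5 of 8 tested genes of interferon gamma signalling were above 0 and Ifngr2 alone was called in that list.

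Class I presentation genes load peptides made in the cytosol. In Dp16 carriers, where 1.17% of all tested genes were called higher, this list gave 4 calls of 9, all higher. They were the light chain B2m at 0.23 (adjusted p = 0.00911), the heavy chains H2-K1 at 0.36 (adjusted p = 0.00908) and H2-D1 at 0.34 (adjusted p = 0.00481), and the immunoproteasome subunit Psmb9 at 0.55 (adjusted p = 0.0194). H2-K1 and H2-D1 share stretches of sequence with other class I genes, so their counts are uncertain in the same way as those of H2-DMb1. The 4 class I calls were not followed over the omissions of single libraries. Other genes of the class II locus were near the detection limit. H2-DMb2 had 0.40, H2-Ob 0.41 and H2-Oa 0.08, 0 of 3 called, and H2-Eb2 had 5 counts in all. Of 5 tested costimulation genes, which provide the second signal to T cells, 5 were above 0 with Cd274 at 0.42 (adjusted p = 0.111) and Cd86 at 0.15, and 0 were called. Of 7 endosomal genes 3 were above 0 and 0 called, with Ifi30, a class II-associated thiol reductase, at 0.29, and the turnover and membrane partners Cd9, Cd82 and Cd37 were all below 0 with 0 called.

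Markers of cells that could supply these transcripts were measured in the same libraries. The 6 meningeal fibroblast genes were all above 0 in Dp16 carriers with a median of 0.29 and 0 called, and their summed level was 29.4 to 70.3 CPM (median 43.9) in carriers and 24.1 to 83.6 CPM (median 33.5) in non-carriers. The most abundant of them, Dcn, had 0.46 (adjusted p = 0.257). Border macrophage genes were above 0 in 7 of 9 with a median of 0.33 and 0 called, and summed to 16 to 28.7 CPM (median 22.4) in carriers and 13.8 to 25.0 CPM (median 18.7) in non-carriers. Microglia genes summed to 525 to 753 CPM (median 656) in carriers and 565 to 850 CPM (median 683) in non-carriers. Of the 11 microglia genes 3 were above 0, and P2ry12 fell by 0.21 (adjusted p = 0.0397) and Sall1 by 0.30 (adjusted p = 0.0158). B cell genes were at the detection limit, at 0.392 to 1.92 CPM summed (median 0.80) in carriers and 0.0612 to 2.99 CPM (median 0.825) in non-carriers, with Ms4a1 at 14 counts over all libraries. Of 5 tested dendritic cell genes 3 were above 0, and Clec9a and Xcr1 had 11 and 4 counts in all.

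The meningeal fibroblast level moved with Cd74, H2-Eb1, H2-DMb1 and H2-Ab1 from library to library, and less or not with the other members. With each gene centred on its group mean, its summed level had a Spearman correlation over the 34 libraries of 0.74 with Cd74, 0.56 with H2-Eb1, 0.49 with H2-DMb1 and 0.47 with H2-Ab1, against 0.25 with H2-Aa and -0.19 with H2-DMa. The choroid plexus sum, which was 5.94 to 967 CPM (median 18.8) in carriers and 7.32 to 1504 CPM (median 26.3) in non-carriers, had correlations between -0.03 and 0.18. The microglia sum had correlations between -0.02 and 0.13 with the members. The border macrophage sum had 0.38 with Cd74, 0.34 with H2-Ab1, 0.16 with H2-Aa, 0.09 with H2-Eb1, -0.02 with H2-DMb1 and -0.57 with H2-DMa. Plaque microglia genes gave 0.16 to 0.32, and dendritic cell genes -0.17 to 0.14. These correlations are descriptions, and their points share library depth and dissection. With the log2 of the meningeal sum as a covariate, an alternative added after the data were seen, the Dp16 difference was 0.48 for H2-Ab1 (adjusted p = 0.242), 0.41 for H2-Eb1 (adjusted p = 0.317) and 0.18 for Cd74 (adjusted p = 0.608), and 0 members were called. With the microglia sum as a covariate it was 0.86 for H2-Ab1 and 0.74 for H2-Eb1, and both were called. With the border macrophage sum it was 0.61 for H2-Ab1 (adjusted p = 0.0988) and 0.70 for H2-Eb1 (adjusted p = 0.0488). The part of meningeal tissue in the Dp16 difference was not tested beyond these fits.

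**Figure D4:**
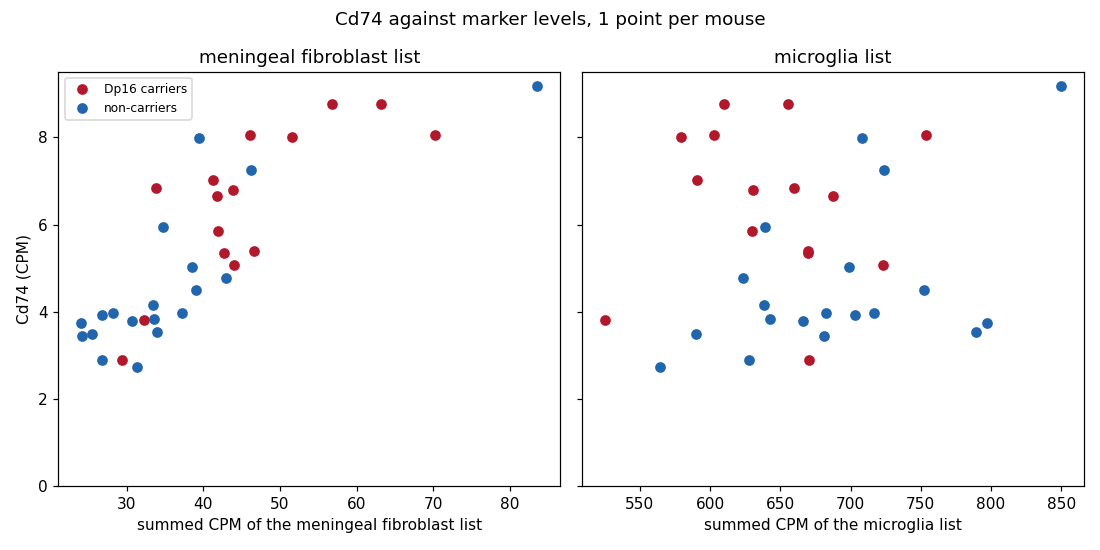
Cd74 CPM of each library against the summed CPM of the meningeal fibroblast genes and of the microglia genes, with carriers of Dp16 in red and non-carriers in blue. Cd74 is high where the meningeal sum is high, up to 9.18 CPM at a sum of 83.6 CPM, and shows no such slope with the microglia sum.

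Some of the members moved with one another, and H2-DMa did not follow the others. Centred on group means over the 34 libraries, H2-Ab1 and H2-Eb1 had a Spearman correlation of 0.72, Cd74 and H2-Eb1 0.57, H2-Eb1 and H2-DMb1 0.56, and Cd74 and H2-Aa 0.53, while H2-Aa and H2-Ab1, which encode the partner chains of I-A, had 0.20. H2-DMa had -0.34 with Cd74 and between -0.01 and 0.07 with the other 4, and H2-Aa had -0.09 with H2-DMb1. The remaining pairs lay between 0.18 and 0.39. The tested genes most like the mean of the 6 members by this measure were Ogn at 0.79, Ptgds at 0.76, Ttc39aos1 at 0.76, Zic1 at 0.70 and Bmp6 at 0.68. Singly, Ptgds was most like H2-Eb1 at 0.78, Folr2 most like Cd74 at 0.77, Serpinf1 most like H2-Ab1 at 0.74, Lrp8os3 most like H2-Aa at 0.74, Fibp most like H2-DMa at 0.78 and Gm35835 most like H2-DMb1 at 0.67. These are the highest of all tested genes and are given as descriptions.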

How the data were processed

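Libraries were strand-specific poly-A libraries read as paired 150-base ends, per the labels' protocols. The deposited count table holds whole-number counts per gene and mouse made by the authors. Per the submitters' processing notes the tools were HTSeq 0.6.1, HISAT2 2.1.0, FastQC 0.11.5, bcl2fastq and SAMtools 1.5, with build GRCm38 and no roles given. The deposited RPKM table is the authors' count scaled by gene length and library total, a relation that was checked by recomputing it, and was used only to compare levels between genes. Of the 6 5xFAD tofacitinib mice that the series description counts, 5 were analysed here, and of its 4 compound sham mice, 3.

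Genes kept by filterByExpr were compared in R 4.3.3 by edgeR 4.0.16, in a single quasi-likelihood fit of 34 libraries, TMM scaling, with a term per group and one for sex. F-tests were two-sided, in 19 comparisons, and a call needed an adjusted p under 0.05 by Benjamini-Hochberg over all genes tested. CPM used TMM-scaled totals and the SE is the log2 difference divided by the square root of F. The fit was tested on simulated data. DESeq2 1.42.0 was an alternative. Positions came from the GENCODE M21 annotation of GRCm38, whose identifiers match the count table for all 7 members, and promoters from RefSeq. The members and lists were chosen with earlier results of these data known. All members are named, and from other lists those called or at most the 4 most abundant. Ctss, Cd274, Ifi30, Irf1, the other Ciita partners, the remaining class II locus genes and Ms4a1, Clec9a and Xcr1 were named after their values were seen. Some genes of the lists are not reported here. The genes most like the members are the 5 with the highest correlation with the mean of the tested members and the top gene for each.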

Additional observations from a re-analysis of the deposited data

Results flagged for a closer look

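In 7 of 42 sets of 1 member in 1 group of 4 or 5 libraries, a single library lay far from the others of its group by the gap to its nearest neighbour. The limit used marks about 1 in 20 sets when values are independent and normally distributed. These sets share libraries, and some members move together, so the number of marked sets was not tested against chance. H2-Ab1 stood at 2.68 CPM in 5xFAD sham 4, against 0.832 to 1.08 CPM in the other 3 libraries of that group. H2-Eb1 in the same library was at 2.44 CPM, against 0.958 to 1.14 CPM, and Cd74 at 7.26 CPM, against 3.53 to 3.96 CPM. In 5xFAD tofacitinib 2, H2-Ab1 was at 4.79 CPM, against 1.19 to 2.14 CPM in the rest of the group, and H2-Eb1 at 3.71 CPM, against 1.24 to 1.89 CPM. H2-Ab1 was at 3.56 CPM in 5xFAD-Dp16 tofacitinib 3, against 2.44 to 2.63 CPM. Ciita was at 0.541 CPM, 9 counts, in Dp16 tofacitinib 2, against 0 to 0.0578 CPM.

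Each of these libraries also had the highest meningeal fibroblast sum of its group: 83.6 CPM in 5xFAD tofacitinib 2, 46.3 CPM in 5xFAD sham 4, 56.8 CPM in 5xFAD-Dp16 tofacitinib 3 and 43.9 CPM in Dp16 tofacitinib 2. Dp16 tofacitinib 5 was close to the last, at 42.0 CPM. None of these libraries had the highest border macrophage sum of its group. In the same order they had 17.7, 20.2, 24.6 and 18.1 CPM, where the highest of each group had 25.0, 23.5, 26.6 and 22.4 CPM. Choroid plexus genes summed to 1504 CPM in 5xFAD tofacitinib 2, against 7.32 to 267 CPM in the rest of its group, and to 509 CPM in 5xFAD-Dp16 tofacitinib 3, against 5.94 to 13.1 CPM. They were at 12.1 CPM in 5xFAD sham 4 and 18.8 CPM in Dp16 tofacitinib 2. Cortex neuron genes summed to 669 CPM in 5xFAD tofacitinib 2, against 1824 to 2432 CPM in the rest of its group. The part of these levels in the high values was not tested.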

How the results depend on the processing

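Over the alternatives run, 753 of 779 counts of members called stayed the same or close, most of them counts of 0 that stayed 0. For Dp16 carriers against non-carriers the count moved in 18 of 34 omissions and 7 of 14 other settings. Log2 differences were tallied for H2-Ab1, H2-Eb1, Cd74, H2-Aa and H2-DMa in chosen comparisons. Of these 1017, 966 kept their direction and side of the threshold, and 0 reversed. H2-DMb1 was outside this tally and changed sign for Dp16, from 0.05 to -0.02 in females and -0.15 with the meningeal covariate. For Dp16 carriers against non-carriers, where 2 members were called, 0 were called in females alone (0.83 for H2-Ab1 and 0.74 for H2-Eb1) and in males alone (0.79 and 0.68). The meningeal covariate also gave 0, as did sham mice and tofacitinib mice compared within the fit of all 34 libraries. Without wild-type sham 2 and wild-type tofacitinib 2 only 1 was called, H2-Eb1 (adjusted p = 0.0367, H2-Ab1 0.0518). DESeq2 and testing without the low-count filter called 3, adding Cd74 (adjusted p = 0.0480 and 0.00414). Leaving out 1 library gave 0 to 3. With the border macrophage covariate 2 were called, H2-Eb1 and H2-DMa (0.28, adjusted p = 0.0164). Without the filter H2-Ab1 was also called in Dp16 against wild-type sham (1 member, adjusted p = 0.0181). The splits and covariates, and leaving out the wild-type pair, were chosen after seeing the data. Between groups, same-number pairs of libraries had a median correlation of 0.0142 and other pairs -0.00197. These medians over all tested genes cannot exclude a batch shared by replicate number. With the replicate block 0 members were called for Dp16 (0.74, adjusted p = 0.0939 for H2-Ab1, and 0.71, adjusted p = 0.0737 for H2-Eb1).

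Counts of all called genes moved more. For Dp16 carriers 378 became 672 without the filter, 206 with the block, 670 without wild-type sham 2 and 5xFAD tofacitinib 2, 36 in females, 102 in males, 78 in sham, 125 in tofacitinib mice and 1533 with the border macrophage covariate. For 5xFAD carriers 74 became 587 with DESeq2, 1358 without the filter and 17 with the block. DESeq2 gave 1587 in place of 3 for 5xFAD against wild-type sham, 63 in place of 37 for Dp16 against wild-type sham, 163 in place of 64 for compound against wild-type sham, 38 in place of 18 for compound against 5xFAD sham and 2 in place of 1 for compound against Dp16 sham. In tofacitinib mice against wild-type it gave 126 in place of 54 for the compound, 75 in place of 44 for Dp16 and 6 in place of 3 for 5xFAD. Without the filter these 8 became, in the same order, 1784, 158, 873, 145, 52, 153, 146 and 76, and tofacitinib against sham gave 51 as the mean of genotypes, 642 in 5xFAD, 93 in the compound, 50 in wild-type and 31 in Dp16 mice, and the interactions 675 for tofacitinib by 5xFAD, 55 for tofacitinib by Dp16 and 15 for 5xFAD by sex, each in place of 0, and 47 in place of 1 for 5xFAD by Dp16. Fits of only the groups compared gave 1282 for 5xFAD sham, 7 for Dp16 sham, 38 for compound against 5xFAD sham, and 5, 12 and 0 for the compound, Dp16 and 5xFAD against wild-type tofacitinib. 5xFAD sham had 468 without the sex term. Leaving out 1 library gave 1 to 1987 for 5xFAD against wild-type sham and 15 to 297 for 5xFAD carriers, both highest without wild-type sham 3. The causes were not tested. Depth limits the chain genes, with 11 to 106 counts for H2-Ab1, and Ciita did not pass the low-count filter. Without the filter Ciita had a log2 difference of 1.41 for Dp16 carriers (SE 0.71, edgeR adjusted p = 0.479). That value rests on 68 counts in all.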
